A study of Mus musculus with 10 samples.

Results

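The comparison set microglia taken by laser from brain sections against microglia sorted from dissociated brain. Its members were the libraries whose labels name laser capture of GFP cells (LCM_GFP, n = 4) or flow sorting of wild-type cells (FACS_WT, n = 3), that is 7 of the 10 libraries of the series. All genes of the deposited expression table were read, 13415 of 37447 passed a filter on low values, and the remaining 3 libraries, sorted GFP cells (FACS_GFP, n = 3), are given beside them. The title of the series names transcripts of oligodendrocytes and neurons in microglia as its subject.

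All mice were 6 weeks old. The laser-captured group held GFP expressing cells of 3 females and 1 male, and the labels name neither the strain nor the gene that drives GFP. Brainstem slices were fixed for a short time in paraformaldehyde and frozen, the cells were cut out of cryosections, and proteinase K digestion and acid phenol released the RNA. The wild-type group held cells of 3 C57BL/6 males. Their tissue was dissociated, a Percoll gradient enriched the cells for sorting, and frozen pellets were lysed in TRIzol. The sorted GFP group (2 females and 1 male) went through the same dissociation and sort, again with no strain or driver named. Amplification was by the Ovation RNA-Seq method throughout. Capture, fixation, RNA extraction, reporter genotype, in part sex and possibly strain therefore differed together and cannot be told apart in this comparison. Libraries are labelled as biological replicates, and whether animals were pooled is not said.

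Microglia are the resident macrophages of the brain and depend on the receptor Csf1r for survival. In tissue they carry long, fine processes that touch neurons, myelin and vessels, so a laser cut around a cell can take in material of its neighbours, whereas dissociation and sorting isolate cell bodies over hours. Immediate early genes such as Fos and Jun encode transcription factors that are made within minutes of a stimulus, and microglia are known to make them and cytokines during dissociation.

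Values are FPKM, fragment counts scaled to transcript length and to the mapped fragments of a library, so levels may be compared between genes. A difference is LCM_GFP minus FACS_WT on the scale of log2(FPKM + 1), which understates the change of low genes, and a gene is called where the Benjamini-Hochberg adjusted p of limma was under 0.05. Values per library are written in the order of the replicate numbers. In all, 14371 genes were listed at 0 in all 7 libraries, among them 33 of 37 mitochondrially encoded genes, so a 0 can be a failed estimate and is reported as listed at 0.

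The laser-captured libraries differed from each other far more than the sorted ones. Between libraries of a group, the SD of log2 values had a median over genes of 0.96 in LCM_GFP, 0.17 in FACS_WT and 0.13 in FACS_GFP. Pearson correlations across the tested genes, which are not independent replicates, were 0.61 to 0.73 within LCM_GFP, 0.97 to 0.98 within FACS_WT and 0.42 to 0.54 between these groups. Steps between low values gave rough depths of 35.8 to 46.9 (in units of 1000000 fragments) in LCM_GFP and 59.2 to 77.7 in FACS_WT. The 10 most abundant genes took 7.04% to 34.4% of all FPKM in LCM_GFP and 6.67% to 13.6% in FACS_WT. Laser-captured libraries 1 and 3 stood apart: they held embryonic globin, cell cycle and oncofetal transcripts at levels far above those of library 4. Both are labelled female, yet Y-linked Kdm5d was at 3.26 and 5.96, beside 36.5 in the male library 2 and 0 in the female library 4. In library 1 Y-linked Uty was at 15.6, whereas in library 3 Uty was at 0.286 and Eif2s3y and Ddx3y were listed at 0, as the female label has it. The counts of called genes are therefore also given for laser-captured libraries 2 and 4 alone.

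The 2 groups differed across a large part of the transcriptome. Of 13415 tested genes, 4207 (31.4%) were called: 1649 (12.3%) were higher and 2558 (19.1%) lower after laser capture, and an unadjusted p under 0.05 was found for 5945. Every laser-captured library lay above every wild-type library for 16.9% of the tested genes, and every one below for 29.6%. These shares are the background for all counts below. The median difference of all tested genes was -0.59. Genes passing only through the laser-captured libraries, with FPKM of at least 1 in no wild-type library, numbered 1668, of which 1213 were called higher, and such genes could hardly differ in the other direction. In the same way 597 genes reached an FPKM of 1 in no laser-captured library, and 588 of them were called lower. With laser-captured libraries 2 and 4 alone and a filter that 2 libraries could pass, 2580 genes were higher and 4088 lower. With the planned filter of 3 libraries, 888 were higher and 3798 lower. List counts below for libraries 2 and 4 alone use the filter of 2 libraries unless stated, which was chosen after seeing the data. Of the calls 39.2% were higher; this share was 59.7% after median ratio scaling, which moved the median difference to -0.11, and 51.5% after quantile normalization. Labelled sex as a covariate left 883 higher and 877 lower genes. All wild-type libraries are male, so that fit sets only laser-captured library 2, the male one, against them. Every value given with sex as a covariate rests on this 1 laser-captured library and is no adjustment across the group. Leaving out 1 wild-type library left 763 to 776 higher and 326 to 384 lower genes, whichever library was left out.

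**Figure D1:**
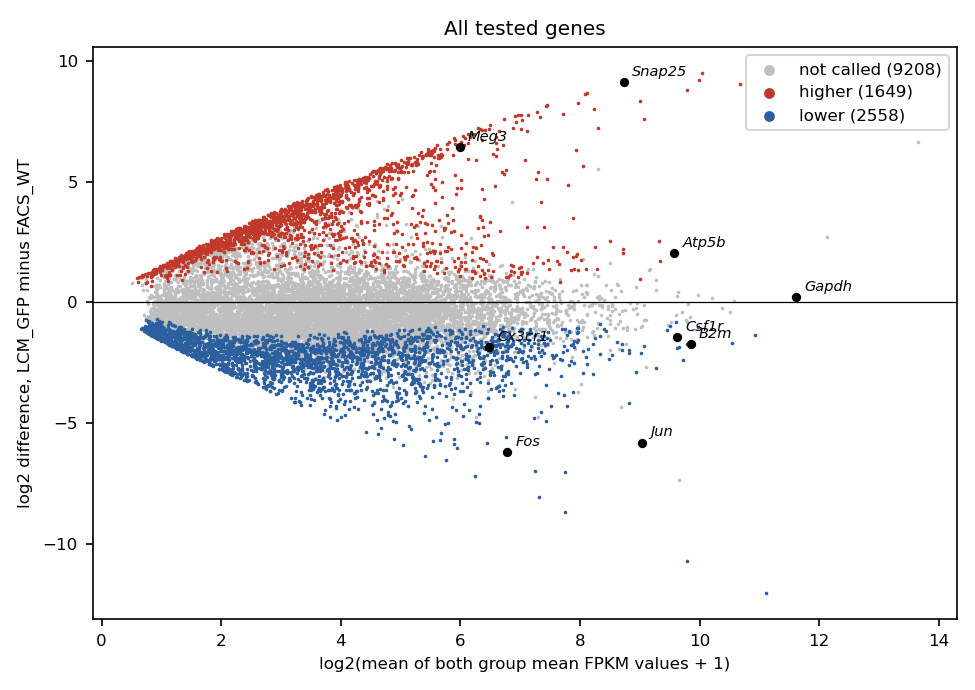
Each point is 1 of the 13415 tested genes. The horizontal axis is the mean level, as log2 of the mean of both group means plus 1, and the vertical axis is the log2 difference, LCM_GFP minus FACS_WT, with 1649 genes called higher in red, 2558 called lower in blue and the rest in grey. Snap25 lies near the top, Fos and Jun low, and Gapdh close to 0; the points below Fos are mostly small RNAs.

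Predicted genes and small RNAs apart, the largest rises included those of genes of oligodendrocytes and neurons. The gene with the largest difference was Cdr1 (chrX:58436421-58438733 in mm9), at 1581, 2422, 2279.8 and 2180.5 FPKM after laser capture and 1.54, 3.93 and 0.86 in sorted wild-type cells (log2 difference 9.51, SE 0.40, adjusted p = 1.63e-05). Its locus also makes a circular antisense RNA of neurons, and since the use of strand in counting is not given in the sources used here, the 2 cannot be told apart. Snap25 (chr2:136539189-136608164), a membrane fusion protein of nerve endings, was at 374, 834, 1027 and 1158 FPKM after laser capture and 0.233, 0.429 and 0.521 in sorted wild-type cells (log2 difference 9.14, SE 0.45, adjusted p = 2.75e-05). The genes named here were picked among called genes without overlap between the groups, so their separation is no separate result. Snap25 passed the filter through the laser-captured libraries only, as did Atp1b2, Gnao1, Tmem47, Mtap2 and Fgf12 below. The calls of these genes are descriptions. Others among the 12 largest rises were Mbp, Atp1b2, Apod, Ptgds, Gnao1, Tmem47, Mtap2 and Aplp1, with log2 differences between 8.01 and 8.80 and adjusted p of at most 0.000156. Fgf12, a partner of sodium channels, was at 55.3, 296, 379.9 and 502 in the laser-captured libraries and listed at 0 in all 3 wild-type libraries.

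The largest falls, with the same genes left out, included those of immediate early genes, chemokines and linker or core histones. Fos (chr12:86814840-86818223) was at 0, 3.63, 0.642 and 6.85 FPKM after laser capture and 131, 282 and 232 in sorted wild-type cells (log2 difference -6.21, SE 0.75, adjusted p = 0.000837). Junb was at 0.166, 4.85, 5.3 and 0.666 against 124, 191 and 192 FPKM (log2 difference -5.84, SE 0.69, adjusted p = 0.000766), and Jun, their partner in the AP-1 factor, at 1.23, 54.5, 29.8 and 25.2 against 699.5, 1158 and 1219.8 FPKM (log2 difference -5.81, SE 0.99, adjusted p = 0.00374). The chemokine genes Ccl3 and Ccl2, and Rgs1, a regulator of G protein signalling, had log2 differences of -5.88, -5.20 and -5.41. Ccl3 was above 0 in laser-captured library 2 only, at 11.6. The others of the 12 largest falls were Hist1h1d, Hist1h3d and Hist1h1c, Gp9, Bst2 and Bcl2a1a, at -5.12 to -6.05. Histone genes and the Bcl2a1 genes have near-identical copies, so the reads of a single copy are uncertain.

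Genes that define microglia were lower in the laser-captured libraries but far from absent. Of 40 microglia genes, all tested, 33 fell, none rose, and in 36 the groups did not overlap, beside 19.1% called lower and 29.6% below without overlap among all tested genes. The median difference of the list was -1.86, and it ranged from -3.41 to -0.87. Summed FPKM of the list was 3985 to 9713 in the laser-captured libraries and 17819.7 to 22102 in the sorted wild-type libraries. Libraries 2 and 3 held 9713 and 9156, and libraries 1 and 4 held 3985 and 4028. In such bulk samples a smaller share of microglia and less RNA of these genes per cell cannot be told apart.

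Csf1r, the receptor for colony stimulating factor, was at 239, 609.9, 657 and 283 FPKM after laser capture and 976, 957 and 1470.2 in sorted wild-type cells (log2 difference -1.45, SE 0.42, adjusted p = 0.0336). P2ry12, the ADP receptor that guides microglial processes, was at 83.7, 190.1, 214 and 116 against 364, 328 and 327 FPKM (log2 difference -1.26, SE 0.38, adjusted p = 0.0368). Tmem119, a surface marker of microglia, was at 140.4, 182, 162 and 75.2 against 539, 596 and 671 FPKM (log2 difference -2.16, SE 0.36, adjusted p = 0.00309). None of these 3 overlapped between the groups, and in each the laser-captured libraries 1 or 4 were lowest. The abundant members Laptm5 and Selplg fell too, with log2 differences of -1.69 and -1.85. The lineage factor PU.1, listed under its older symbol Sfpi1, had the lowest difference of the list, at 5.51, 126, 45.5 and 14.5 against 287, 275 and 323 FPKM (log2 difference -3.41, SE 0.90, adjusted p = 0.0236). Sall1, a factor of microglial identity, was at 56.6, 99.2, 127 and 51.4 against 214, 184 and 192 FPKM (log2 difference -1.32, SE 0.39, adjusted p = 0.0349). P2ry12, Tmem119, Sfpi1 and Sall1 were chosen after their values were seen. The count of 33 fell to 27 with laser-captured libraries 2 and 4 alone (median -1.77), to 11 after median ratio scaling, to 4 to 7 without 1 wild-type library and to 1 with sex as a covariate. Beside these falls the summed level of the neuron list was 3724 to 7955 in the laser-captured libraries and 239 to 245 in the sorted wild-type libraries; its part in the microglia result was not tested.

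**Figure D2:**
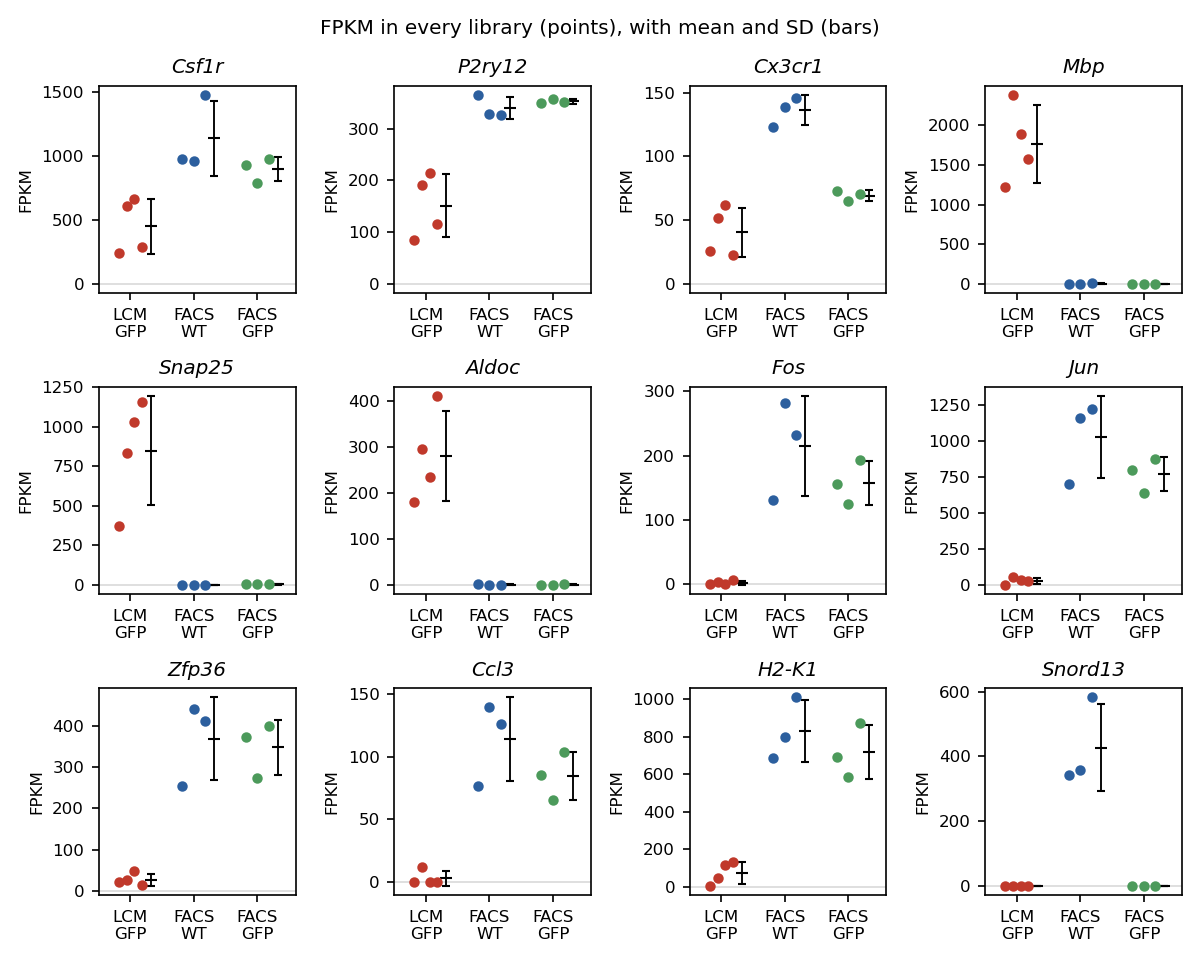
FPKM of 12 genes in each library of LCM_GFP (red, 4 libraries), FACS_WT (blue, 3) and FACS_GFP (green, 3), with the mean and SD of each group in black and linear axes that differ between panels. Mbp, Snap25 and Aldoc are high in the 4 red points alone, Fos, Jun, Zfp36 and Ccl3 are near 0 there, and Csf1r and P2ry12 lie between.

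Markers of perivascular macrophages, monocytes and blood leukocytes were lower where called. Of 18 perivascular macrophage and monocyte genes 10 were tested, 1 of them only through the wild-type libraries, and 5 fell, with none higher (median -1.46). The count was 1 without any 1 wild-type library and with sex as a covariate, and 2 after median ratio scaling. Summed FPKM of this list was 113 to 445 in the laser-captured libraries and 434 to 557 in the sorted wild-type libraries. Emr1, a surface receptor that microglia share with other macrophages, was at 0.904, 19.8, 78.9 and 11.8 against 132, 122 and 183 FPKM (log2 difference -3.35, SE 1.08, adjusted p = 0.0466). Lyz2, lysozyme, was at 17.5, 47.3, 6.81 and 7.6 against 76.8, 73 and 99.3 FPKM (log2 difference -2.41, SE 0.65, adjusted p = 0.0255), and Pf4, a chemokine of perivascular macrophages and platelets, at 0, 2.85, 0 and 1.04 against 12.2, 14.3 and 18 FPKM (log2 difference -3.23, SE 0.58, adjusted p = 0.00484). Stab1, a scavenger receptor, was at 221, 38.7, 354 and 105 against 219.9, 198 and 232 FPKM and was not called (adjusted p = 0.468). Of 14 blood leukocyte genes only Cd79b passed the filter, at 0, 31.2, 2.19 and 0.264 against 50.3, 36.5 and 74 FPKM (log2 difference -3.96, SE 1.14, adjusted p = 0.0316). The neutrophil genes S100a8 and S100a9 were not tested. They were listed at 0 in all 4 laser-captured libraries and in wild-type libraries 2 and 3. In wild-type library 1 they were at 5.42 and 4.12 FPKM. The Cd79b call was lost without laser-captured library 1, 3 or 4 and without any 1 wild-type library, among other settings.

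Immediate early genes had the lowest median difference of the lists with more than 1 tested gene. Of 29 listed, 25 were tested, 20 fell and none rose, with a median difference of -3.15. Among the tested members, 5 reached the filter through wild-type libraries alone, so the count is a description. Summed FPKM was 139 to 255 in the laser-captured libraries and 2153 to 3621 in the sorted wild-type libraries. All 4 laser-captured libraries were thus far below all wild-type ones for this sum. In the sorted GFP libraries, the same sum was 2044 to 2914. The most abundant members were Jun, given above, Zfp36, Egr1 and Rhob. Zfp36, which destabilises cytokine mRNA, was at 22.5, 26, 48.6 and 14.8 FPKM after laser capture and 255, 441 and 411 in sorted wild-type cells (log2 difference -3.76, SE 0.45, adjusted p = 0.0008). Egr1, a zinc finger factor, was at 18.5, 13.2, 2.89 and 69.5 against 213, 473 and 333 FPKM (log2 difference -4.29, SE 0.87, adjusted p = 0.00802). Dusp1, a phosphatase that ends MAP kinase signalling, was at 6.25, 13.7, 8.19 and 10.3 against 267, 361 and 237 FPKM (log2 difference -4.80, SE 0.39, adjusted p = 0.00019). All 4 laser-captured values of Dusp1 lay far below the wild-type ones. Nr4a1, an orphan nuclear receptor, was the 1 tested member with a difference above 0 and was not called, at 0.0101, 11.6, 2.76 and 4.33 against 1.43, 1.71 and 1.91 FPKM (adjusted p = 0.597). Dusp1 and Nr4a1 were chosen after their values were seen. With laser-captured libraries 2 and 4 alone, 21 members were called lower and 1 higher (median -3.35); without 1 wild-type library 11 to 12 were lower, and with sex as a covariate 11.

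The promoters of 3 immediate early genes and of the chemokine gene Cxcl10 are printed. The transcript of each was lower in every laser-captured library than in any sorted wild-type one. They are the 250 bases before the RefSeq start in GRCm38.p6, read 5′ to 3′ on the strand of the gene, with matches to 3 elements in capitals: the CArG box bound by serum response factor, the cyclic AMP response element TGACGTCA, and the NF-kappaB element, all searched on both strands. Fos lies at chr12:85473640-85473889, plus strand, Zfp36 at chr7:28379229-28379478, minus strand, Dusp1 at chr17:26508473-26508722, minus strand and Cxcl10 at chr5:92348890-92349139, minus strand.
Fos: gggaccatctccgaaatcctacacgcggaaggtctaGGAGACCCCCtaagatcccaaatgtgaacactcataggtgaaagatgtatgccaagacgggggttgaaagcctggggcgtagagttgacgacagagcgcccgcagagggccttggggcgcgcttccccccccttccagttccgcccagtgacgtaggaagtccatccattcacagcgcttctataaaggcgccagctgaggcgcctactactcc
Zfp36: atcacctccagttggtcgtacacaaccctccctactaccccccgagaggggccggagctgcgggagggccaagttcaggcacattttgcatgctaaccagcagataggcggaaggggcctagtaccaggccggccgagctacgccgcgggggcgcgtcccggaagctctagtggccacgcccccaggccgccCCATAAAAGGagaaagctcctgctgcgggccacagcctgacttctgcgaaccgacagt
Dusp1: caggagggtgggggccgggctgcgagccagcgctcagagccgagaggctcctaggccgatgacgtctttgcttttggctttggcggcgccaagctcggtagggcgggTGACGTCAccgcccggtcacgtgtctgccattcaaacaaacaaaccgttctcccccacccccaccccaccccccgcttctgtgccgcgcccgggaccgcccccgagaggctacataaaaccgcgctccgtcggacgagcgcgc
Cxcl10: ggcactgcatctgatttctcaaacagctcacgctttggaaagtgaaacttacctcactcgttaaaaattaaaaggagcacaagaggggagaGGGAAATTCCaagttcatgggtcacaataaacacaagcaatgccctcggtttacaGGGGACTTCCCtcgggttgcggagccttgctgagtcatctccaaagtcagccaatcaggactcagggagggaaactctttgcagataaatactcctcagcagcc
The capitals mark an NF-kappaB element in Fos, starting 214 bases upstream, a CArG box in Zfp36, 58 bases upstream, and a cyclic AMP response element in Dusp1, 143 bases upstream. Cxcl10 has 3 NF-kappaB elements, starting 159, 104 and 103 bases upstream, of which the last 2 overlap. Of 29 immediate early genes 24 had a promoter in the table: a CArG box was found in 2 (8.33%, against 1.62% of 27025 genes) and a cyclic AMP response element in 3 (12.5%, against 1.77%). Neither was particular to them: of 24 neuron genes with a promoter, 2 (8.33%) held a CArG box and 4 (16.7%) a cyclic AMP response element. An NF-kappaB element was found in 10 of 17 cytokine and NF-kappaB genes (58.8%) and in 6 of 24 immediate early genes, Fos among them. It was found in 2 of 28 microglia genes (7.14%) and in 8.23% of all genes. A match describes the letters of this window and is no evidence of binding.

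Chemokines and cytokines followed the same direction. Of 23 listed genes 20 were tested, 12 fell and none rose (median -2.72), and summed FPKM was 61.9 to 416 in the laser-captured libraries and 669 to 952 in the sorted wild-type libraries. Ccl12, a monocyte chemokine, was at 9.67, 1.95, 0.905 and 7.31 FPKM after laser capture and 115, 154 and 168 in sorted wild-type cells (log2 difference -4.94, SE 0.66, adjusted p = 0.00121). Ccl4 was at 1.76, 29, 0 and 0 against 61.4, 119 and 121 FPKM (log2 difference -5.01, SE 1.15, adjusted p = 0.0134). Cxcl10, whose promoter is printed above, was listed at 0 in all 4 laser-captured libraries and at 13.2, 17.3 and 19.9 in the wild-type ones (adjusted p = 0.000296). Among the 20 tested genes, 2 passed the filter through the wild-type libraries only, Cxcl10 among them, so its call is a description. Tnf, tumour necrosis factor, was at 0, 5.91, 0.0957 and 0 against 12.5, 14.2 and 12.1 FPKM (log2 difference -3.06, SE 0.74, adjusted p = 0.0162). Laser-captured library 2 was the highest of the 4 for Ccl3, Ccl4 and Tnf. Ccl9 was higher in that library than in any sorted one, at 0.8, 246, 33.2 and 13 against 77.7, 71.8 and 86.9 FPKM, and was not called (adjusted p = 0.327). The count was 11 with laser-captured libraries 2 and 4 alone, 4 to 5 without 1 wild-type library and 6 with sex as a covariate. Cxcl10 and Tnf were chosen after their values were seen.

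Genes of antigen presentation, lysosomes and Fc or complement receptors were lower in larger part than the background of 19.1%. Of 18 antigen presentation genes 17 were tested and 10 fell (median -2.71), and none rose. B2m, the light chain of class I molecules, was at 299, 496, 635 and 329 against 1339.9, 1400.3 and 1480.2 FPKM (log2 difference -1.74, SE 0.31, adjusted p = 0.00472), and the class I gene H2-K1 at 5.16, 45.8, 114 and 131 against 686, 798 and 1010.5 FPKM (log2 difference -4.17, SE 0.98, adjusted p = 0.0147). Psmb8, an immunoproteasome subunit chosen after its values were seen, was at 1.85, 0.221, 0.8 and 0.63 against 38, 41.3 and 51.8 FPKM (log2 difference -4.63, SE 0.47, adjusted p = 0.000415). Class I genes are near-identical copies of each other, so their single values are uncertain. Of 20 interferon response genes 18 were tested, 2 of them only through the wild-type libraries, and 7 fell. Bst2, which tethers virus particles, was at 2.87, 1.7, 0.0449 and 0 against 57, 55.8 and 94.8 FPKM (log2 difference -5.23, SE 0.62, adjusted p = 0.000766). The factor Irf9 was not called (adjusted p = 0.206).

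Of 26 lysosome genes 14 fell and none rose (median -1.87). Ctsa, a protective protein and peptidase, was at 79.4, 389.7, 402 and 367 against 1292, 1286 and 1569 FPKM (log2 difference -2.40, SE 0.57, adjusted p = 0.0153). Ctsd, the most abundant member, overlapped between the groups at 614, 882, 1050.2 and 441 against 1194, 1074 and 998 FPKM and was not called (adjusted p = 0.184). Of 15 complement and Fc receptor genes 9 fell, among them C1qb and Fcer1g at log2 differences of -1.16 and -1.16, and none rose (median -2.01). With laser-captured libraries 2 and 4 alone the counts were 13 lower for antigen presentation, 8 for interferon response, 14 for lysosomes and 8 for complement and Fc receptors. Without 1 wild-type library they were 4 to 5, 3, 3 and 2, and with sex as a covariate 4, 3, 0 and 1.

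Of 18 genes associated with microglia in disease models, 17 were tested, 1 of them only through the wild-type libraries. Of these 17, 7 fell and 2 rose (median -1.33). Cst3, cystatin C, was at 741, 1576, 1330.2 and 803 against 2264, 2012 and 4113 FPKM (log2 difference -1.33, SE 0.37, adjusted p = 0.0292). Trem2, a lipid receptor, was at 51.8, 126, 230.1 and 100.3 against 565, 437 and 767 FPKM (log2 difference -2.36, SE 0.50, adjusted p = 0.00933), and its adaptor Tyrobp at 377, 627, 337 and 134 against 1012, 1039 and 1581 FPKM (log2 difference -1.88, SE 0.49, adjusted p = 0.023). The 2 genes that rose were Fabp5, a fatty acid carrier, at 143, 16.4, 8.7 and 38.5 against 0.756, 1.6 and 1.32 FPKM (log2 difference 3.83, SE 0.87, adjusted p = 0.0131), and Spp1, osteopontin, at 28.5, 13.5, 34.2 and 10.6 against 2.63, 2.11 and 2.51 FPKM (log2 difference 2.58, SE 0.53, adjusted p = 0.00832). Apoe, the lipid carrier of astrocytes and activated microglia, overlapped at 72.5, 699, 332 and 415 against 393, 289 and 593 FPKM and was not called (adjusted p = 0.625). The list had 4 lower and 2 higher genes with laser-captured libraries 2 and 4 alone, 1 to 2 lower and 0 to 1 higher without 1 wild-type library, and 3 lower and 0 higher with sex as a covariate.

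Transcripts of neurons were high in every laser-captured library. Of 39 neuron genes, all tested, 38 rose and none fell, and all 39 lay above the wild-type libraries without overlap, beside 12.3% called higher and 16.9% above among all tested genes. Of these, 28 reached the filter through laser-captured libraries alone, so their count is a description. The median difference was 5.47. Mtap2, microtubule-associated protein MAP2 of dendrites, was at 176, 353, 339.7 and 500.2 FPKM after laser capture and 0.0967, 0.154 and 0.198 in sorted wild-type cells (log2 difference 8.13, SE 0.44, adjusted p = 3.58e-05). Rtn1, a reticulon of the endoplasmic reticulum, was also present in sorted cells, at 751, 648, 406 and 985 against 140.1, 146 and 145 FPKM (log2 difference 2.20, SE 0.34, adjusted p = 0.00217). All 39 rose with laser-captured libraries 2 and 4 alone and the filter of 2 libraries (median 5.71). With the filter of 3 libraries, which removes genes found in laser-captured libraries alone, 11 rose.

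Genes of inhibitory transmission were among the transmitter genes that rose. Of 29 such genes 23 were tested, all through the laser-captured libraries only, and 20 rose, or 15 without 1 wild-type library and with sex as a covariate. Slc32a1, the vesicular carrier of the inhibitory transmitters GABA and glycine, was at 299.6, 24.1, 14.8 and 29.4 FPKM after laser capture and 0, 0 and 0.00704 in sorted wild-type cells (log2 difference 5.44, SE 0.96, adjusted p = 0.00424); library 1 was far above the others. Slc6a5, the glycine transporter of inhibitory neurons of brainstem and cord, was at 2.42, 54.6, 20.3 and 10.0 and listed at 0 in the wild-type libraries (adjusted p = 0.0124). The sodium channel gene Scn1a was at 28.5, 161, 91.1 and 195 and likewise listed at 0 there (adjusted p = 0.000455). Gad1, which makes GABA, was uneven, at 0.0549, 12.9, 92.9 and 80.6, and not called, with the wild-type libraries listed at 0 (adjusted p = 0.0568). Markers of modulatory neurons were low: Th, which makes catecholamines, did not exceed 4.86, Slc6a4, the serotonin transporter, did not exceed 4.49, and Chat, which makes acetylcholine, did not exceed 1.74 in any laser-captured library. Slc6a5, Th, Slc6a4 and Chat were chosen after their values were seen.

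Oligodendrocyte transcripts were the most abundant of the neural lists in laser-captured libraries 1 to 3, and neuron transcripts in library 4. Of 38 genes 36 were tested, 31 rose and 1 fell (median 5.06), with 23 passing through the laser-captured libraries only. Summed FPKM was 5261 to 11801 in the laser-captured libraries and 740.3 to 1052 in the sorted wild-type libraries; in libraries 1, 2, 3 and 4 it was 5261, 11801, 9192 and 7746. Mbp, myelin basic protein, was at 1218, 2379, 1893 and 1570.5 against 2.23, 2.82 and 3.6 FPKM (log2 difference 8.80, SE 0.34, adjusted p = 1.08e-05). Mog, a surface protein of mature myelin, was at 20.3, 180.2, 92.5 and 169.8 against 0.374, 0.45 and 0.0641 FPKM (log2 difference 6.11, SE 0.76, adjusted p = 0.000942). The wild-type sum came mostly from Sirt2, a deacetylase, at 832, 644, 686 and 559 against 389, 296 and 350.3 FPKM (log2 difference 0.97, SE 0.26, adjusted p = 0.0225), and Trf, transferrin, at 417, 387, 703 and 237 against 252, 230.2 and 401 FPKM, which was not called (adjusted p = 0.37). Evi2a, which fell, was at 61, 8.77, 49.4 and 16.9 against 168, 136 and 199.7 FPKM (log2 difference -2.62, SE 0.66, adjusted p = 0.0189). Of 12 precursor genes 10 were tested and all 10 rose, all of them passing through the laser-captured libraries only, with Ptprz1, a receptor phosphatase, at 54, 38.8, 61.2 and 95.7 against 0.0123, 0.0107 and 0.0169 FPKM (log2 difference 5.89, SE 0.46, adjusted p = 0.000177). In laser-captured libraries 2 and 4 alone with the filter of 2 libraries, 34 oligodendrocyte and 11 precursor genes rose. With the filter of 3 libraries 10 and 0 rose. Against 31 and 10 in the main fit, the counts were 29 and 5 without 1 wild-type library and 27 and 5 with sex as a covariate. Mog was chosen after its values were seen.

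Of 26 astrocyte genes, all tested, 21 rose and none fell (median 4.65), and 21 passed through the laser-captured libraries only. Aldoc, an aldolase of astrocytes, was at 179, 295, 235 and 409.7 against 0.367, 0.14 and 0.206 FPKM (log2 difference 7.76, SE 0.41, adjusted p = 3.20e-05). Sparcl1, a secreted matrix protein, was at 177, 241, 279.9 and 323 against 0.147, 0.101 and 0.139 FPKM (log2 difference 7.79, SE 0.39, adjusted p = 2.75e-05). Gfap, the filament protein of fibrous astrocytes and chosen after its values were seen, was at 151, 159, 84.1 and 78.7 against 0.0207, 0.0432 and 0.0845 FPKM (log2 difference 6.75, SE 0.45, adjusted p = 8.33e-05). Glul, glutamine synthetase, overlapped between the groups, at 467, 299, 268 and 390.1 against 413, 405 and 323 FPKM, and was not called (adjusted p = 0.777). The count was 24 with laser-captured libraries 2 and 4 alone and the filter of 2 libraries, and 3 with the filter of 3 libraries.

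Vessel genes were mixed. Of 21 endothelial genes 20 were tested, 12 rose and 1 fell (median 2.35). Of the 20, 11 passed through the laser-captured libraries only, so the count of rises is a description. Slco1a4, a transporter of the blood-brain barrier, was at 103, 40.4, 23 and 134 and listed at 0 in the wild-type libraries (adjusted p = 0.000596). Eng, endoglin, which fell, was at 0.941, 27.4, 3.05 and 20.4 against 100.3, 78.9 and 119 FPKM (log2 difference -3.57, SE 0.93, adjusted p = 0.0222). Slc2a1, a glucose transporter, was at 174, 42.6, 94.1 and 216 against 47.8, 49.9 and 56.6 FPKM and was not called (adjusted p = 0.161). Of 17 pericyte, smooth muscle and fibroblast genes 7 were tested and 5 rose (3 to 4 without 1 wild-type library), among them Vtn, vitronectin, at 27.9, 17, 38 and 108 against 0.51, 0.428 and 0.0897 FPKM (log2 difference 4.86, SE 0.65, adjusted p = 0.00121). Of these 7, 5 passed through the laser-captured libraries only. Of 10 ependyma and choroid plexus genes 3 were tested: the ciliary factor Foxj1 rose, and Ttr and Kcnj13 of the choroid plexus fell, with Ttr at 0, 8.51, 0 and 0 against 47, 8.6 and 30.5 FPKM (log2 difference -3.80, SE 0.96, adjusted p = 0.0196). Foxj1 passed the filter through the laser-captured libraries only, so its call is a description. Without laser-captured libraries 1 and 3, 2 genes of this list rose and 1 fell. The endothelial count of 12 was 15 with laser-captured libraries 2 and 4 alone, and 4 there with the filter of 3 libraries. It was 4 with sex as a covariate and 5 without 1 wild-type library. Of the defining endothelial marker Cldn5, chosen after its values were seen, the wild-type libraries were all listed at 0 and the laser-captured ones held 6.71, 9.63, 22.6 and 2.9.

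**Figure D3:**
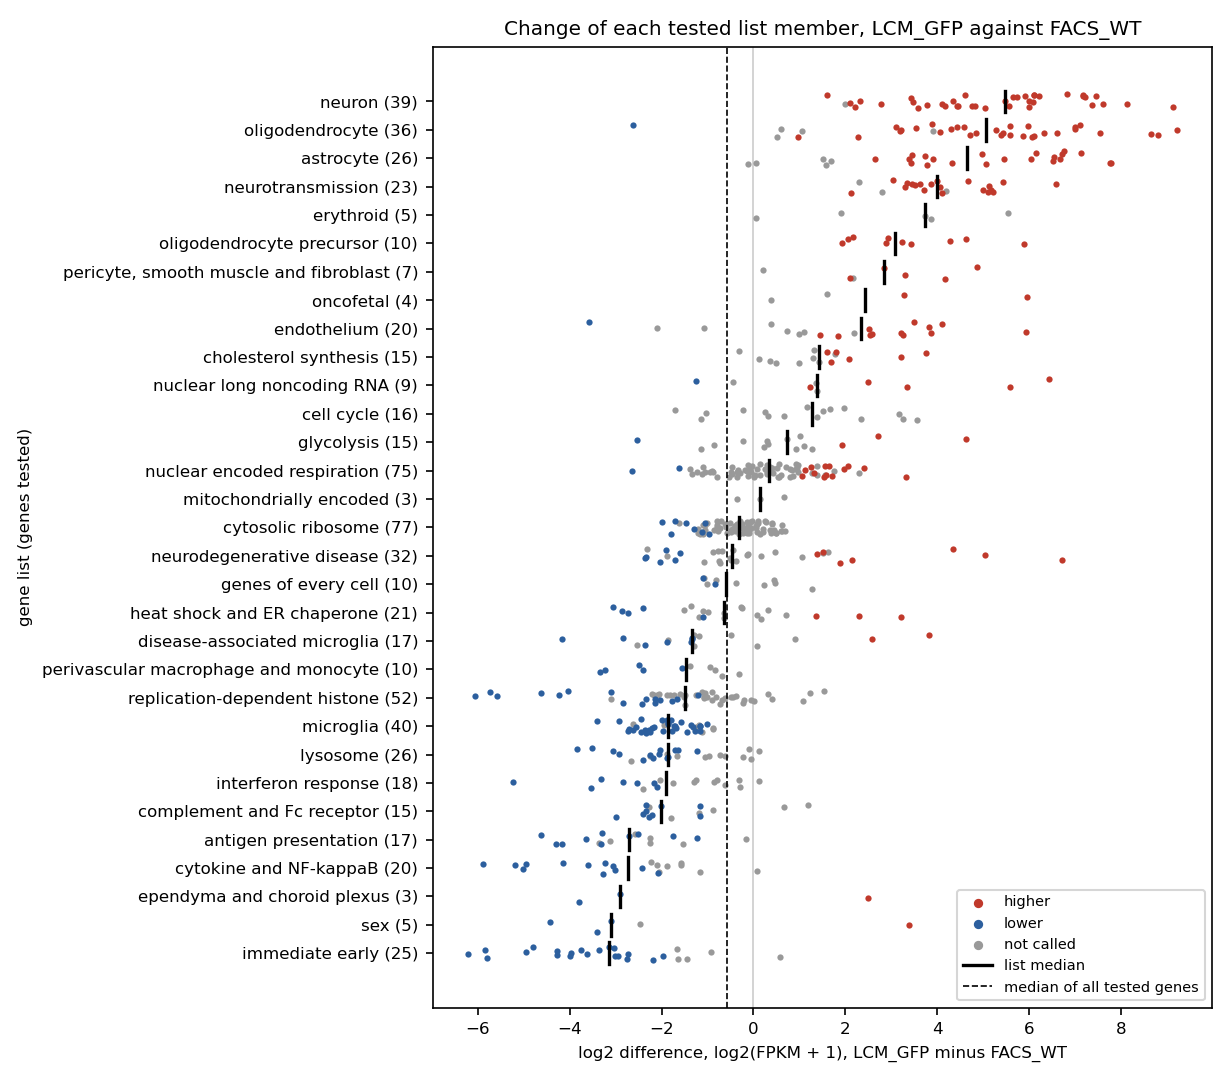
Each point is a tested gene of the list named on the vertical axis (number tested in brackets); the horizontal axis is its log2 difference, LCM_GFP minus FACS_WT, with called genes in red (higher) and blue (lower) and the rest in grey. Short black bars are list medians and the dashed line is the median of all tested genes, -0.59. Medians run from -3.15 for immediate early genes to 5.47 for neuron genes.

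Lists of general cell functions moved less, beside 12.3% called higher and 19.1% called lower among all tested genes. Among genes used by every cell the share called lower was near that background. Of 10 genes used by every cell, 2 fell, among them Actb at 569.7, 670.0, 589.5 and 419 against 806, 983 and 1206 FPKM (log2 difference -0.83, SE 0.27, adjusted p = 0.0475), and none rose (median -0.60); the Actb call was lost after median ratio scaling and held in 4 of 20 alternatives. Gapdh was at 4762, 2711, 2838 and 3325 against 2706, 2993 and 2771 FPKM and was not called (adjusted p = 0.485). Of 80 cytosolic ribosome genes 77 were tested, 8 fell and none rose (median -0.31); the count was 25 with laser-captured libraries 2 and 4 alone and 0 without 1 wild-type library and after median ratio scaling, where the median was 0.23. Of 76 nuclear encoded respiration genes 75 were tested, 13 rose and 2 fell (median 0.34). Atp5b, a subunit of ATP synthase, was at 1059, 1109, 1350.0 and 1391 against 266, 286 and 329 FPKM (log2 difference 2.05, SE 0.24, adjusted p = 0.000666). The 2 that fell were Ndufa9 and Sdhd, at -2.65 and -1.62. Among respiration genes, 24 rose and 3 fell with laser-captured libraries 2 and 4 alone, 23 rose after median ratio scaling, 5 to 7 without 1 wild-type library and 4 with sex as a covariate. Of the 37 mitochondrially encoded genes 3 were tested and none was called, with 0 at an unadjusted p under 0.05 in limma.

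Cholesterol synthesis genes were higher where called. Of 15, all tested, 1 of them only through the laser-captured libraries, 6 rose and none fell (median 1.43). Insig1, which restrains sterol synthesis, was at 22.2, 38.3, 30.1 and 44.2 against 9.19, 7.32 and 12.3 FPKM (log2 difference 1.69, SE 0.43, adjusted p = 0.0187). The count was 8 with laser-captured libraries 2 and 4 alone, 2 without 1 wild-type library and 3 with sex as a covariate. Of 15 glycolysis genes 3 rose and 1 fell, the hexokinase gene Hk2, at 5.33, 4.02, 12.6 and 1.57 against 32.8, 28.7 and 36.1 FPKM (log2 difference -2.53, SE 0.60, adjusted p = 0.0151). Of these 15, 1 passed the filter through the laser-captured libraries only. With laser-captured libraries 2 and 4 alone 7 glycolysis genes rose and 2 fell, and 8 rose after median ratio scaling. Of 21 heat shock and endoplasmic reticulum chaperones, 5 fell and 3 rose. These shares were near those of all tested genes, 19.1% lower and 12.3% higher, so the genes below are examples and no trait of the list. Those that rose were the cytosolic chaperones Hsp90aa1 at 306, 318, 229 and 535 against 121, 131 and 129.5 FPKM (log2 difference 1.37, SE 0.34, adjusted p = 0.0174), Hsph1 at 81.3, 73.4, 86.8 and 126 against 18.8, 18 and 15.9 FPKM (log2 difference 2.29, SE 0.35, adjusted p = 0.00197) and Hspa4l. Those that fell included Hspa5, the main chaperone of the endoplasmic reticulum, at 103, 53.3, 76 and 58.7 against 291, 448 and 414 FPKM (log2 difference -2.41, SE 0.35, adjusted p = 0.00158), and the stress-induced Hspa1a, at 0, 0, 0 and 0.0233 against 1.86, 9.04 and 12.9 FPKM (log2 difference -2.87, SE 0.53, adjusted p = 0.00509), both chosen after their values were seen. Hspa1a passed the filter through the wild-type libraries only, so its call is a description. The chaperone counts were 7 lower and 3 higher with laser-captured libraries 2 and 4 alone, 1 to 2 lower and 1 higher without 1 wild-type library, and 1 and 1 with sex as a covariate.

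Of 32 genes linked to neurodegenerative disease, all tested, 7 rose and 6 fell (median -0.47), and with laser-captured libraries 2 and 4 alone 9 rose and 10 fell. Of the 32, 4 passed through the laser-captured libraries only. Among all tested genes 12.3% were called higher and 19.1% lower, and the share called lower in this list was near the latter. Without 1 wild-type library 3 to 5 rose and 1 to 2 fell, and with sex as a covariate 5 rose and 2 fell. Among the abundant members Sod1, superoxide dismutase, rose at 495, 312, 457 and 539 against 163, 155 and 188 FPKM (log2 difference 1.39, SE 0.29, adjusted p = 0.00864), and Grn, progranulin, fell at 65.2, 186, 367 and 267 against 627, 613 and 599 FPKM (log2 difference -1.72, SE 0.55, adjusted p = 0.0446). App, the amyloid precursor, chosen after its values were seen, rose at 203, 177, 126 and 188 against 54.3, 47 and 80.4 FPKM (log2 difference 1.52, SE 0.34, adjusted p = 0.0114). Of 10 nuclear long noncoding RNAs 9 were tested, 5 rose and 1 fell (median 1.38). Of the 9, 5 passed through the laser-captured libraries only, so the count of rises is a description. Meg3, an imprinted RNA of neurons, was between 33.5 and 216 after laser capture and at most 0.101 in sorted wild-type cells (log2 difference 6.44, SE 0.77, adjusted p = 0.000791), and Snhg1, which fell, at 1.1, 0.288, 1.51 and 1.15 against 3.02, 3.76 and 4.33 FPKM (log2 difference -1.26, SE 0.38, adjusted p = 0.0377). Malat1, a nuclear RNA of most cells, was at 349.9, 951, 1094 and 964 against 332, 415 and 188 FPKM and was not called (adjusted p = 0.0546).

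Several lists were carried by single laser-captured libraries. Of 14 erythroid genes 5 were tested and none was called, and 2 had an unadjusted p under 0.05 in limma. The embryonic globin Hba-x was at 1853, 2.16, 660.5 and 0.225 FPKM across the laser-captured libraries, Hbb-y at 902, 0.102, 439 and 0.0666 and Hbb-bh1 at 646, 0.598, 626 and 0.141, and all were listed at 0 in the wild-type libraries. These globins are made in the embryo, and the labels give 6 weeks as the age of all mice. The cell cycle genes Mki67 and Top2a followed the same 2 libraries, Mki67 at 202, 12.4, 46.6 and 0.0785 against 1.38, 0.835 and 0.939 FPKM (adjusted p = 0.138) and Top2a at 251, 2.23, 43.9 and 2.22 against 0.872, 0.998 and 1.36 FPKM (adjusted p = 0.134). Of 21 cell cycle genes 16 were tested and none was called, with 2 at an unadjusted p under 0.05 in limma; with laser-captured libraries 2 and 4 alone 6 fell and 1 rose, and the median turned from 1.28 to -1.15. Of 11 oncofetal genes 4 were tested, 2 of them only through the laser-captured libraries, and 2 rose. Igf2, a fetal growth factor, rose, at 450.1, 43, 29.8 and 26.8 against 0.0953, 0 and 0.0041 FPKM (log2 difference 5.96, SE 0.95, adjusted p = 0.00273), and the other, chosen after its values were seen, was Dlk1; 1 gene of the list rose without libraries 1 and 3. The imprinted RNA H19 was at 299, 0.117, 49.5 and 0.121 against 0, 0 and 0.136 FPKM and below the filter. No Hox gene passed the filter, but Hoxa9 was at 537 in library 1 and 26.3 in library 3, and Hoxb6 at 33.6 in library 1 and 30.4 in library 2, each listed at 0 in all sorted libraries.

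Replication-dependent histone genes were split in the same way. Of 70, 52 were tested, 16 fell and none rose (median -1.49), and summed FPKM was 3567, 384 and 818 in laser-captured libraries 1 to 3 and lower still in library 4, against 1688 to 1871 in the wild-type ones. Of the 52, 5 passed through the wild-type libraries only. Hist1h1c, a linker histone, was at 3.12, 1.66, 1.9 and 9.52 against 152, 186 and 294 FPKM (log2 difference -5.57, SE 0.57, adjusted p = 0.000448), and Hist1h2bm at 585, 0.0703, 193 and 0 against 3.15, 6.49 and 7.72 FPKM, which was not called (adjusted p = 0.635). Their mRNAs lack a poly(A) tail, and how the libraries were primed is not given beyond the amplification method. With laser-captured libraries 2 and 4 alone 40 fell, with a median of -2.49, and without 1 wild-type library 6 to 7 fell. Of the 5 sex genes, Xist rose, at 14, 0.0398, 32.8 and 21.2 against 0, 0.00572 and 0.00403 FPKM (log2 difference 3.37, SE 1.11, adjusted p = 0.0491), Eif2s3y, Uty and Ddx3y fell, and Kdm5d was not called (adjusted p = 0.109), in a comparison of 3 females and 1 male with 3 males. Xist passed the filter through the laser-captured libraries only, so its call is a description. All 4 calls were lost with sex as a covariate, where only the male library 2 is set against the wild-type libraries.

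**Figure D4:**
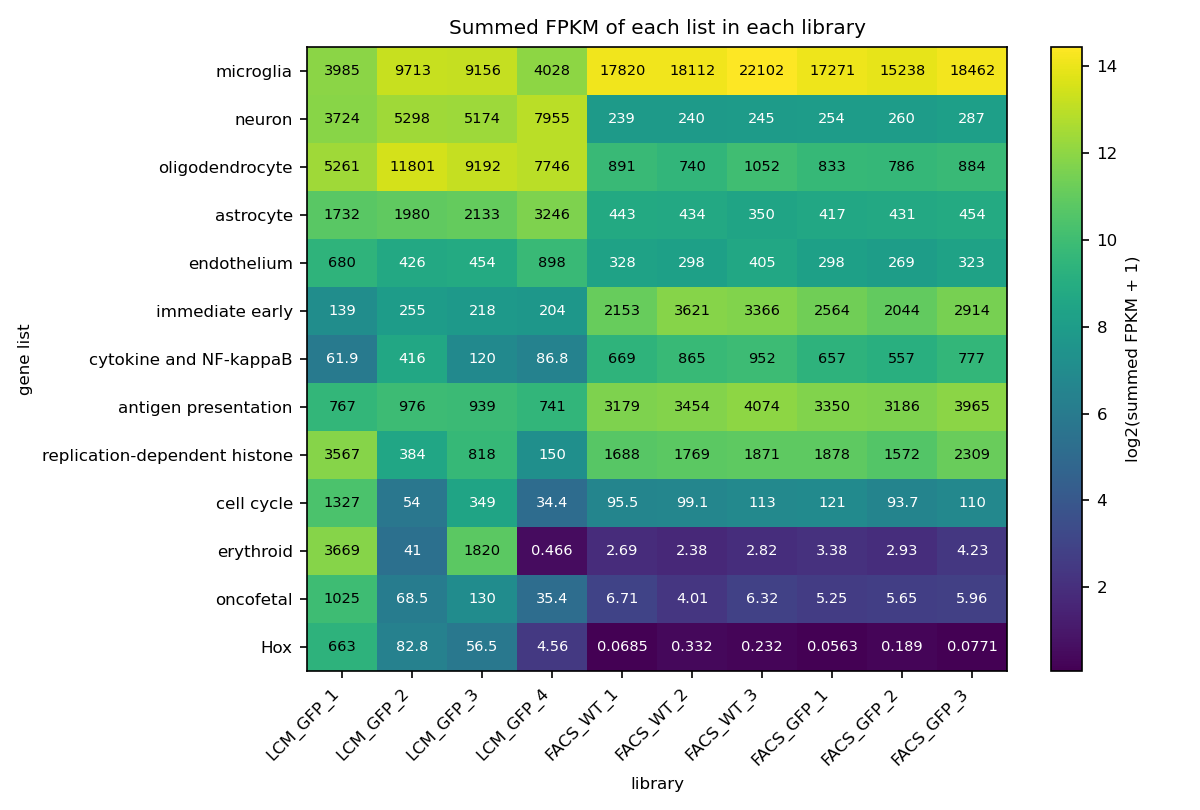
Summed FPKM of 13 gene lists (rows) in each of the 10 libraries (columns), printed in the cells and coloured by log2 of the sum plus 1. The erythroid sum is 3669 and 1820.4 in laser-captured libraries 1 and 3 and 0.466 in library 4, while the neuron and oligodendrocyte sums are high in all 4.

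Calls were spread unevenly over gene length. Among tested loci of up to 1 kb, 2.41% were called higher and 34.0% lower. These shares were 8.83% and 19.8% for loci of 5 to 20 kb, 23.4% and 14.2% for 100 to 200 kb, 37.1% and 10.7% for 200 to 500 kb, and 58.8% and 6.88% for the 160 loci over 500 kb. Without the members of the neuron, transmitter, oligodendrocyte, precursor and astrocyte lists, 157 such long loci remained, and 91 were higher and 11 lower. Of the 160, 106 reached the filter through laser-captured libraries alone, and 88 of these were called higher. Among the 54 long loci with a mean of at least 1 FPKM in the wild-type group, a selection that leans the other way, 6 (11.1%) were higher and 11 (20.4%) lower, with a median of -1.24. Annotated types, read from GENCODE M21 for 97.0% of the tested genes, differed too. Of 613 processed pseudogenes 10 were higher and 217 lower, of 36 snoRNA genes none was higher and 16 were lower, and of 11909 protein-coding genes 1567 were higher and 2095 lower. The gene with the lowest difference of all was the small nucleolar RNA Snord118, chosen after its values were seen. It was listed at 0 in all 4 laser-captured libraries and was at 2878, 5676 and 4667 FPKM in the wild-type libraries and 10053, 6744 and 16244 in the sorted GFP libraries (adjusted p = 5.17e-06 for LCM_GFP against FACS_WT). FPKM of transcripts as short as this depends strongly on the length used, so these values are uncertain. Pseudogenes share reads with their parent genes, so their values are uncertain.

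**Figure D5:**
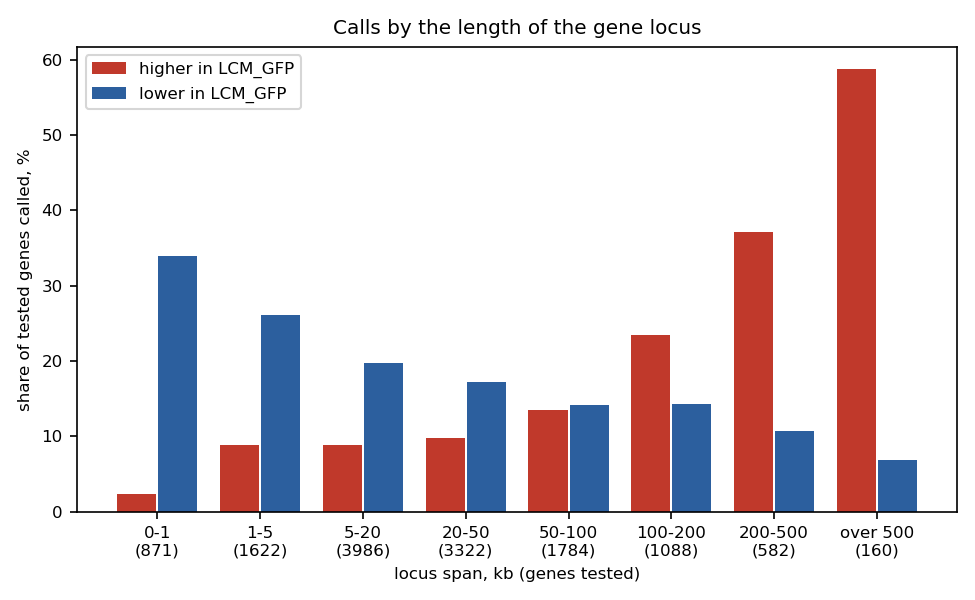
Bars give the percentage of tested genes called higher (red) or lower (blue) in LCM_GFP in each class of locus span in kb, with the number of genes tested in brackets. The share called higher goes from 2.41% for the shortest loci to 58.8% for the longest, most of which passed the filter through laser-captured libraries alone, and the share called lower from 34.0% to 6.88%.

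GFP and wild-type cells can be compared apart from the method in the sorted libraries, where both went through 1 protocol. Sex differed in part there too, and no strain is named for the GFP mice, so reporter and strain cannot be told apart. The test between the sorted groups called 13 of 11814 genes (0.11%), 4 higher and 9 lower in sorted GFP cells, with 1552 at an unadjusted p under 0.05. It shares its wild-type libraries with the main comparison, so values are set side by side. Cx3cr1, the fractalkine receptor of microglia (chr9:119957811-119977400), was at 25.5, 51.3, 61.5 and 22.3 FPKM after laser capture and 123, 139 and 146 in sorted wild-type cells and at 72.5, 64.6 and 70.4 in the sorted GFP libraries. Its log2 difference was -0.97 for sorted GFP against wild-type (SE 0.11, adjusted p = 0.0179) and -1.86 for laser-captured against wild-type (SE 0.44, adjusted p = 0.0145). The 3 groups did not overlap for it. No other member of the microglia list was called between the sorted groups.

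Snord13, a small nucleolar RNA, was at 341, 358 and 582 in the wild-type libraries and listed at 0 in all 7 GFP libraries, laser-captured or sorted. Gm11694 was likewise at 4.24, 4.28 and 3.48 and listed at 0 in all 7. Mid1, a ubiquitin ligase gene at the edge of the pseudoautosomal region, was at 0.306, 0.959 and 1.03 in the sorted GFP libraries and 18, 39.5 and 28.2 in the wild-type ones (log2 difference -4.03, SE 0.28, adjusted p = 0.000704), but at 16.8, 12.4, 9.85 and 14.1 in the laser-captured ones. Slc25a12, a mitochondrial carrier, was higher in sorted GFP cells, at 61.7, 63.2 and 66.1 against 28.3, 26.4 and 25.6 (log2 difference 1.22, SE 0.10, adjusted p = 0.002), and at 18.4, 37.3, 42.9 and 132 after laser capture. The other genes called between the sorted groups were Xist, SNORA8, SNORA17, Snora68, Rps19-ps1, Rps19-ps2, G530011O06Rik and Gm9157; SNORA17, for example, was listed at 0 in the sorted GFP libraries and at 20.1, 20.5 and 16.4 in the wild-type ones. All genes of this paragraph but Xist were chosen after their values were seen. No immediate early gene and no neuron gene was called between the sorted groups, with 4 of 25 and 3 of 12 tested at an unadjusted p under 0.05 in limma.

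The authors' deposited table of the same comparison was more restrictive. Of 14870 genes tested there, the authors' deposited table gave 651 as significantly higher and 94 as lower in laser-captured cells. Of those found by symbol in the expression table, 503 of 648 higher and 63 of 94 lower genes were also called in that direction with limma. Snap25, Mbp, Cdr1, Fos and Jun were significant in the authors' deposited table, whereas Csf1r, P2ry12, Tmem119 and Cx3cr1 were not. Mtap2 and Gnao1 of the 12 largest rises were not significant there either. The same held for Ccl3, Gp9, Rgs1, Bst2, Ccl2 and Bcl2a1a of the 12 largest falls, and for Dusp1. Mki67 and Hist1h2bm, not called with limma, were significantly higher in laser-captured cells there.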

How the data were processed

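RNA was amplified, sequenced and summarised by the authors. Per the submitters' processing notes, CASAVA 1.8.2, TopHat2 2.0.4, Bowtie2 2.0.0, Cufflinks 2.0.2 and mm9 were used; the roles and settings of these tools are not given in the sources used here. The authors deposited 1 table of FPKM per gene and library, with no counts, and a table of their own comparisons with log2 fold changes and adjusted p-values (q-values). Coordinates are those of the deposited table in mm9. Which library was run on a HiSeq and which on a MiSeq is not given, so a difference between instruments could not be examined.

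From the deposited FPKM, log2(FPKM + 1) was fitted with limma 3.58.1 (statmod 1.5.0) in R 4.3.3, with trend and robust estimation, on the 7 libraries of LCM_GFP and FACS_WT only, keeping genes that reached an FPKM of 1 in 3 or more libraries. Adjusted p is Benjamini-Hochberg over all tested genes, 2-sided. Sorted GFP against sorted wild-type was fitted in the same way on its own 6 libraries. Whether replicates came from separate animals is not stated beyond the word biological, so p-values measure only the spread between these libraries. Named genes were the 12 largest rises and falls among called genes without overlap and with a mean FPKM of at least 5 in the higher group, predicted genes and small RNAs left out; the 4 members with the highest mean FPKM in each list; called members that went against most of their list, if there were no more than 5; the sex genes; and Cx3cr1. Members and lists (33 lists, 850 distinct genes found, 9 by older symbols, 5 not found) were chosen with earlier results of these data known, so no list is independent evidence. Depth was estimated from the steps between low FPKM values (within 0.2 of a whole step for 66.9% to 75.9% of them), too few for recovered reads. Promoters came from the RefSeq table for GRCm38.p6. The limma script was tested on simulated data. Tables and figures were made with Python 3.11.15, pandas 2.3.3, numpy 2.4.6, scipy 1.17.1 and matplotlib 3.10.9. Alternatives changed the pseudocount, the filter, the scaling, the model, the covariates and the libraries. Some named genes of the rule are not reported here.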

Additional observations from a re-analysis of the deposited data

Results flagged for a closer look

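In 23 of 121 named genes 1 of the 4 laser-captured libraries lay far from the other 3. Its gap to its neighbour, as a share of the range, was above Dixon's critical value for 4 values. For normally distributed values chance alone gives this in about 1 of 20 groups. The rule was applied to FPKM, which is skewed and has a floor, and some genes were chosen after their values were seen. That rate therefore does not apply here, and the count of 23 is a description. Library 2 was the one apart in 11 genes, library 1 in 7, library 3 in 3 and library 4 in 2.

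Library 2 was high for some inflammatory genes: Ccl3 at 11.6 FPKM and Ccl4 at 29.0, Ccl9 at 246, Tnf at 5.91, Rgs1 at 20.2 and Bcl2a1a at 11.4, where no other laser-captured library exceeded 33.2 for Ccl9 or 1.76 for any of the rest. Of these only Ccl9 was above the sorted wild-type libraries. Other chemokines went otherwise: Ccl12 was not highest in library 2, and Ccl2 was highest in library 3. Cxcl10 was listed at 0 in every laser-captured library. In library 2 Cd79b was at 31.2 and Ttr at 8.51. It is the library labelled male, and the Y-linked genes Eif2s3y, Kdm5d and Ddx3y were at 47.9, 36.5 and 4.41 in it.

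Library 1 was high for Top2a at 251 FPKM, Igf2 at 450.1, H19 at 299, Hoxa9 at 537, Slc32a1 at 299.6 and Hist1h1d at 5.42, and low for Ctsa, at 79.4 against 367 to 402 in the others. Library 3 was high for Irf9 at 127, Gp9 at 8.81 and Ccl2 at 1.55. In library 4 Hist1h3d was at 2.40, and Hspa1a was at 0.0233 where the others were listed at 0.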

How the results depend on the processing

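Of the main counts, 1649 higher and 2558 lower genes, the number of higher genes was 883 with labelled sex as a covariate and 888 with laser-captured libraries 2 and 4 only, where a filter of 3 libraries out of 5 removes genes found in laser-captured libraries alone. With libraries 2 and 4 and a filter of 2 libraries, an alternative chosen after seeing the data, it was 2580 higher and 4088 lower. Lower genes numbered 1237 after median ratio scaling and 877 with the sex covariate, where the difference rests on laser-captured library 2 alone. The cause of the changed counts was not tested. Leaving out 1 library gave 763 to 1990 higher and 326 to 3267 lower genes, and the smallest counts came without a wild-type library, where 2 libraries remain in that group. Other pseudocounts, filters, scalings and models kept both counts within 1.5 times. Between the sorted groups, the count of 13 was 7 with no filter and 3 in a fit of all 10 libraries, and 4 to 15 when 1 library was left out.

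With the replicate block the counts were 1427 higher and 1907 lower, and 19 between the sorted groups. Deviations of same-numbered libraries of LCM_GFP and FACS_WT correlated at -0.040, -0.0020 and -0.013 (Pearson, across genes). No FACS_WT library correlated best with the laser-captured library of its own number. Between the sorted groups these correlations were 0.081, 0.030 and 0.20, and only FACS_WT library 3 correlated best with its own number. Whether the numbers pair the libraries cannot be settled from so few libraries.

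Of 98 named genes that were called, 50 lost the call with sex as a covariate, 40 to 43 without 1 wild-type library, 22 after median ratio scaling and 14 with libraries 2 and 4 and a filter of 2; none of the called ones changed sign. Reversals concerned uncalled genes. The sex covariate sets only laser-captured library 2 against the wild-type libraries. With it the log2 difference was -0.26 for Slc2a1, 1.63 for Ccl9, 0.78 for Apoe, -0.057 for Gapdh, -2.6 for Hist1h2bm and 0.22 for Kdm5d. Apoe was at 0.056 after median ratio scaling, 0.40 with laser-captured libraries 2 and 4 under either filter and -0.91 to 0.17 when 1 library was left out (highest without laser-captured library 1). Glul was at 0.42 after median ratio scaling and -0.26 to 0.0040 when 1 library was left out. Gapdh was at -0.11 after quantile normalization. Hist1h2bm was at -2.65 with libraries 2 and 4 under either filter and -0.13 to 2.94 when 1 library was left out. Since no counts were used, the depth behind single values is known only roughly, and low values are limited most.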
